A study of Mus musculus with 6 samples.

Results

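The Tex genes are genes whose symbols begin with Tex, for testis expressed, followed by a number. Every row of the deposited expression table with such a symbol was taken, except Tex11, Tex12, Tex15 and Tex19.1, which the choice of members left out. This left 35 of the 39 Tex symbols among 36652 genes. The members were chosen by name and not by any measured value. Their levels were compared between 3 testis libraries labelled Ccdc117ko and 3 labelled WT, all from mice 8 weeks of age. Libraries of total RNA came from a stranded mRNA kit and were read on an Illumina sequencer. The labels do not describe the Ccdc117 allele or the strain. They also leave unsaid whether each replicate was its own mouse, and the spread behind each p-value is that between these samples, which may be technical.

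Tex symbols record where a transcript was first found and do not mark a protein family. The products work at quite different places: in the bridges that join sister germ cells, on the sperm surface, inside the microtubules of the sperm tail, and, for a few genes active in many tissues, at the endoplasmic reticulum or in the nucleolus. Many Tex genes are switched on in spermatids, the haploid cells that are remodelled into sperm, and many have no described function.

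The libraries held 39368277, 38521519 and 38964966 reads for Ccdc117ko replicates 1 to 3, and 35791616, 43461692 and 39939156 reads for WT replicates 1 to 3. Levels are given as normalized counts, which are reads divided by the scaling factor of the library. Ccdc117, the targeted gene (chr11:5528887-5542187, minus strand), had 3719 ± 220 normalized counts in Ccdc117ko libraries and 3805 ± 138 in WT libraries (SD, n = 3 each). Its log2 fold change was -0.03 (SE 0.05, adjusted p = 0.714), so the total over the gene does not check the genotype labels, and each library is called by its label here.

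Of the 35 Tex genes, 13 rose in the libraries labelled Ccdc117ko, 0 fell and 22 did not pass the test. The test was limma's moderated test, two-sided, with p-values adjusted over the 22878 genes that averaged at least 10 normalized counts, and with 0.05 as the threshold. All 35 Tex genes were among these. The background was 8.35% of tested genes called higher and 8.25% called lower, 16.6% in either direction. The Tex genes were more deeply covered, with a median of 2600 normalized counts against 289 over tested genes. The background shares given here were not matched for level. The genes that rose were Tex38, Tex36, Tex29, Tex26, Tex43, Tex13c1, Tex33, Tex24, Tex21, Tex48, Tex264, Tex47 and Tex35. Their folds were modest and lay between 1.10 and 1.38.

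Across the 35 genes, the log2 fold change was above 0 for 28 and below 0 for 7. The median was 0.14, beside -0.01 over all tested genes and -0.03 over tested protein-coding genes. In 18 members every Ccdc117ko library lay above every WT library, and in 1, Tex13c2, every Ccdc117ko library lay below. The same held for 17.3% and 17.2% of all tested genes. The normalized counts of the members summed to 137996, 141040 and 141749 in Ccdc117ko replicates 1 to 3, and to 131647, 126681 and 125257 in WT replicates 1 to 3. The members thus took 0.351% to 0.361% of each Ccdc117ko library and 0.319% to 0.339% of each WT library.

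**Figure D1:**
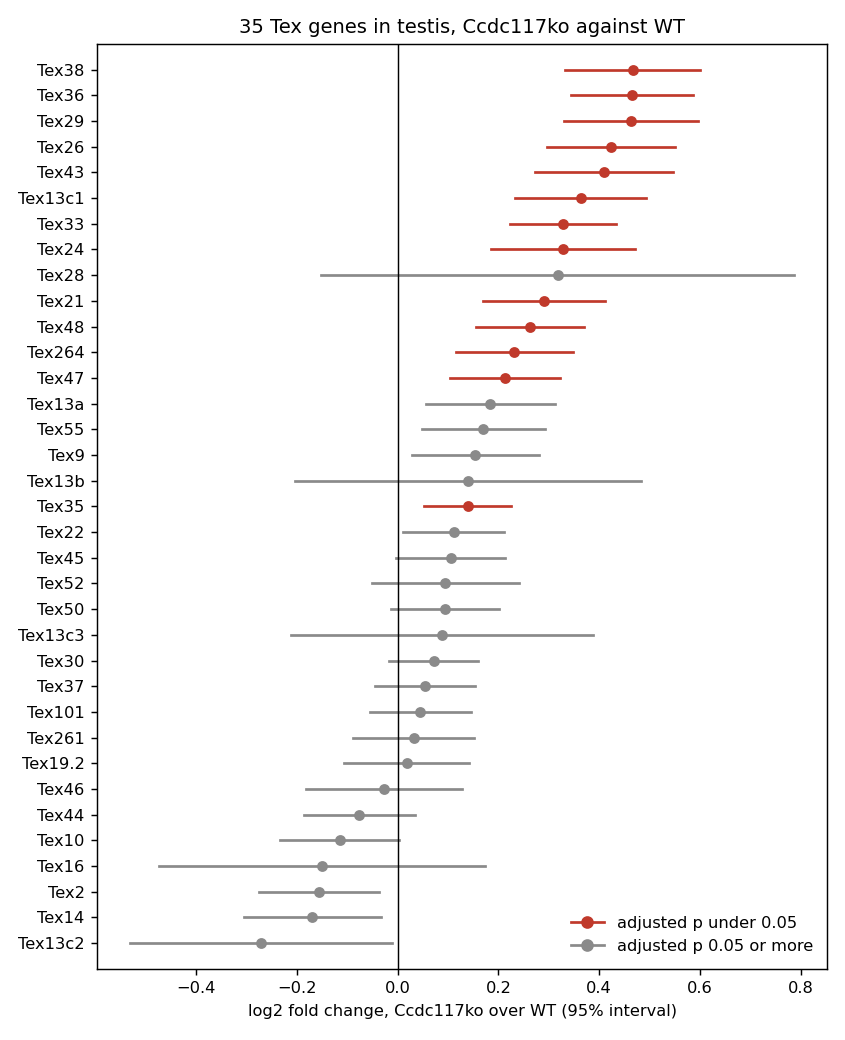
Log2 fold change of each of the 35 Tex genes, Ccdc117ko over WT, with its 95% interval from limma. Red marks the 13 genes with an adjusted p under 0.05, all to the right of 0, and grey the other 22. Tex28, Tex13b, Tex13c3, Tex16 and Tex13c2, each averaging under 300 normalized counts, have the widest intervals.

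In whole testis, fewer cells of a type and less RNA per cell cannot be told apart, and lists of marker genes moved along with the Tex genes. Of 10 round spermatid markers, 9 rose (Spaca1, Catsper4, Acrv1, Sun5, Txndc8, Catsper3, Izumo1, Acr and Tssk1), and their list's summed level was 71461 to 74836 normalized counts in Ccdc117ko libraries, against 59068 to 62954 in WT libraries. These 9 passed whichever single library was left out. Of 10 spermatogonial markers 5 fell, with sums of 8912 to 9430 in Ccdc117ko libraries and 10868 to 11704 in WT libraries. Of 10 Sertoli cell markers 7 fell, with sums of 47895 to 49835 in Ccdc117ko libraries and 53031 to 54377 in WT libraries. Without Ccdc117ko replicate 2 the markers that fell were 3 in each of these 2 lists, and the spermatogonial count was 3 or 4 without any other library. Of the 10 elongating spermatid markers 3 rose and 1 fell, and of the 10 pachytene spermatocyte markers 2 rose and 2 fell. Leydig cell markers rose in 4 and fell in 3 of 9 genes, peritubular myoid markers rose in 1 and fell in 2 of 7, and 3 of 8 macrophage markers fell. Several of these smaller counts hung on single libraries, but 2 pachytene spermatocyte and 1 peritubular myoid markers rose in every fit without 1 library. Of the elongating spermatid markers 1 rose and 0 fell without Ccdc117ko replicate 2 or WT replicate 3, and 5 rose without WT replicate 1. The Leydig cell markers that fell were 1 without WT replicate 3, and the peritubular myoid ones 0 without Ccdc117ko replicate 2 or WT replicate 3. Over all 6 such fits, 1 to 3 pachytene spermatocyte, 1 to 4 Leydig cell, 0 to 2 peritubular myoid and 2 to 3 macrophage markers fell. Summed levels of the pachytene spermatocyte list were 183713 to 184108 normalized counts in Ccdc117ko libraries and 166333 to 180083 in WT libraries. In the same order, Leydig cell sums were 80798 to 93822 and 68702 to 79413. Peritubular myoid sums were 16548 to 17184 and 15609 to 16309. Elongating spermatid sums were 787793 to 825569 and 751353 to 807403, which overlapped. Macrophage sums were 2825 to 3058 and 3331 to 3733. Such sums weigh the abundant genes of a list most. The log2 fold change was below 0 in 6 of 7 peritubular myoid and 6 of 10 pachytene spermatocyte markers. The sums of both lists were nonetheless higher in Ccdc117ko libraries. The 1 epididymal marker with enough reads to test, Spink8, was not called. The 6 found in the table summed to 34.6 to 41.3 normalized counts in Ccdc117ko libraries and 22.6 to 44.9 in WT libraries. The part of these shifts in the change of the Tex genes was not tested.

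Short transcripts rose relative to long ones throughout the table. Over 22837 tested genes with a known length, the log2 fold change had a Spearman rho of -0.35 with the length of the longest transcript, a description across genes, which are not independent. The median log2 fold change was 0.13 in the bin of shortest transcripts (median length 695 bases) and -0.13 in the bin of longest ones (median length 5971 bases). Tex transcripts are short, with a median of 1424 bases against 2547 bases over all tested genes. Of the 19 members under 1500 bases 8 rose, and of the 16 longer ones 5 rose. When the trend of each library with length and GC content was removed, 13 members were again higher and 0 lower, where 8.21% of all tested genes were higher and 3.99% lower. The calls shared 12 genes, Tex9 entering and Tex35 leaving. The median log2 fold change of the members was then 0.08, against 0.01 over all tested genes.

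**Figure D2:**
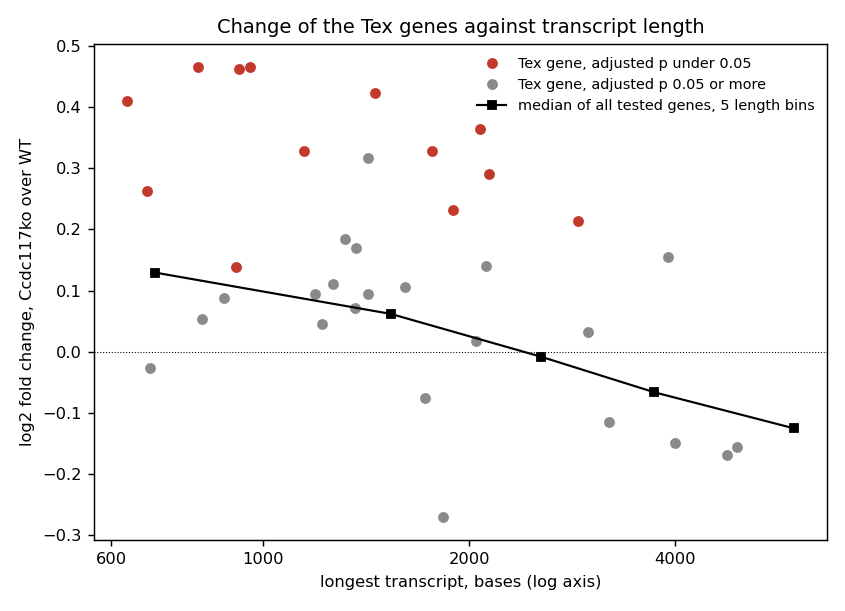
Log2 fold change (Ccdc117ko over WT) of the 35 Tex genes against the length of their longest transcript in bases, on a log axis. Red marks the 13 called genes and grey the others. Black squares are the medians of all tested genes in 5 length bins, from 0.13 at 695 bases to -0.13 at 5971 bases, and 12 of the 13 red points keep their call when that trend is removed.

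Tex38, Tex36, Tex29 and Tex26 had the highest log2 fold changes of the Tex genes. The 250 bases that precede the RefSeq transcript start of each are shown, on the gene's strand, from RefSeq on build GRCm38.p6. They let the region upstream of that start be read for the genes that moved most. Capitals mark matches, on either strand, to 4 motifs, which do not overlap each other here. They are ACAAT, the core of the sites of SOX factors, and AACTGNC, a motif of MYB factors. The others are GTTGCC, a part of the X-box that RFX factors bind, and TGACGT, a part of the cAMP-response element that CREM binds. The windows are chr4:115781035-115781284 for Tex38 and chr7:133602116-133602365 for Tex36, both on the minus strand, and chr8:11840271-11840520 for Tex29 and chr5:149439410-149439659 for Tex26, both on the plus strand. The last bases of 2 windows lie inside the gene span used elsewhere here, which begins at 133602158 for Tex36 and at 11840474 for Tex29. The GTTGCC match of Tex36 and the ACAAT match of Tex29, its only match, lie in those parts.
Tex38: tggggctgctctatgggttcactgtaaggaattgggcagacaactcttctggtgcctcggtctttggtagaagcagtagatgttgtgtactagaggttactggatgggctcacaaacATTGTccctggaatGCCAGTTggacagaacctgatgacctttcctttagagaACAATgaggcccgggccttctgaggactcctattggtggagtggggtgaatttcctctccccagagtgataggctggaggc
Tex36: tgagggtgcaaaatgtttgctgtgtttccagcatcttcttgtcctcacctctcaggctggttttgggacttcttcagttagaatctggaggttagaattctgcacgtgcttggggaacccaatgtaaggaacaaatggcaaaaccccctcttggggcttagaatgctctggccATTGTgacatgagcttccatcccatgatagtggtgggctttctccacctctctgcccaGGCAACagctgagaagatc
Tex29: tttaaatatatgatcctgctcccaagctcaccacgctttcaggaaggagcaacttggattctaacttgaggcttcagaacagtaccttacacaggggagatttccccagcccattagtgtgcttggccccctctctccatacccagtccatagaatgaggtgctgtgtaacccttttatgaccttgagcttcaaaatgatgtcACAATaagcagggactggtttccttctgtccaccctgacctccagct
Tex26: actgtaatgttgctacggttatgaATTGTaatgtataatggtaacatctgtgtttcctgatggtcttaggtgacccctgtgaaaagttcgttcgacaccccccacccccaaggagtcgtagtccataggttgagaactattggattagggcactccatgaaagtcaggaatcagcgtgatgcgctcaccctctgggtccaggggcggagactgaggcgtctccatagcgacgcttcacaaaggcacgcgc
All 4 windows hold at least 1 ACAAT match. Tex38 holds 2 of them and 1 AACTGNC match, Tex36 holds 1 GTTGCC match besides its ACAAT match, and none of the 4 holds TGACGT. RefSeq windows were matched for 29 of the 35 Tex genes. An ACAAT match was present in 15 of these 29 (51.7%), against 30.9% of 27025 mouse genes, and in 8 of the 11 called members with a window and 7 of the 18 others. AACTGNC was present in 8 (27.6%, against 12.1% of genes), GTTGCC in 5 (17.2%, against 11.8%) and TGACGT in 2 (6.90%, against 7.29%). A match here is a run of letters, and binding was not measured.

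Among genes of the sperm surface, lipid modification and signalling, Tex38 was the only 1 of 3 to pass the test. Tex38 (chr4:115779834-115781018), whose product is a membrane partner of the palmitoyltransferase Zdhhc19, had 1813, 1976 and 1903 normalized counts in Ccdc117ko libraries, against 1469, 1364 and 1288 in WT libraries. Every Ccdc117ko library was above every WT library, and the log2 fold change was 0.47 (SE 0.06, adjusted p = 0.000914). It was 0.35 with the length and GC trend removed (adjusted p = 0.00243).

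The other genes linked to that enzyme moved the same way as Tex38. Zdhhc19 itself, which attaches palmitate to proteins, rose to 4045 ± 176 normalized counts in Ccdc117ko libraries, against 3262 ± 323 in WT libraries (log2 fold change 0.31, SE 0.06, adjusted p = 0.00713). Arrdc5, an arrestin-domain gene whose product is needed for sperm to take their shape and is known as a substrate of that enzyme, rose to 5919 ± 183 in Ccdc117ko libraries, against 4394 ± 410 in WT libraries (log2 fold change 0.43, SE 0.06, adjusted p = 0.00107).

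Tex101 encodes a glycosylphosphatidylinositol-anchored glycoprotein needed for the protease-like protein Adam3 to mature and reach the sperm surface. It had 7858, 7821 and 8136 normalized counts in Ccdc117ko libraries, against 8134, 7677 and 7298 in WT libraries. The genotypes overlapped, and the log2 fold change was 0.04 (95% interval -0.06 to 0.14, adjusted p = 0.561). With the length and GC trend removed it was -0.03. Tex55, whose product binds the regulatory subunits of protein kinase A, had a log2 fold change of 0.17 (adjusted p = 0.0557), and its adjusted p was 0.0131 without WT replicate 1. It had 0.08 (adjusted p = 0.383) with the length and GC trend removed.

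Genes known from the maturation of Adam3 and from the sperm surface were mixed: of 20, 6 rose and 1 fell, with a median log2 fold change of 0.09, or 0.06 with the length and GC trend removed. Pmis2, a sperm surface gene needed to pass the uterotubal junction, rose to 2347 ± 124 normalized counts in Ccdc117ko libraries, against 1862 ± 45.4 in WT libraries (log2 fold change 0.33, adjusted p = 0.00232). Pdilt, a testis chaperone of the disulfide isomerase family, had a log2 fold change of 0.28 (adjusted p = 0.00781) and Adam6b one of 0.23 (adjusted p = 0.0145). Adam1b fell by 0.21 on the log2 scale (adjusted p = 0.0104). Adam3 averaged 36454 ± 1421 in Ccdc117ko libraries and 39028 ± 2043 in WT libraries, which did not pass the test (log2 fold change -0.10, adjusted p = 0.157). The number of higher genes in this list depended on single libraries, with 3 without Ccdc117ko replicate 2, 3 without WT replicate 2 and 2 without WT replicate 3. Without WT replicate 1, 7 were higher and 3 lower. Adam1b lost its call with the length and GC trend removed (adjusted p = 0.0591), without Ccdc117ko replicate 2 (0.0634) and without WT replicate 3 (0.0501), and Adam6b without Ccdc117ko replicate 3 (0.0636) or WT replicate 3 (0.065).

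Of the 4 genes whose products sit inside the microtubule doublets of cilia and the sperm tail, Tex33 and Tex43 rose, and Tex37 and Tex45 did not pass the test. Tex33 (chr15:78378400-78395912) had 18173, 19539 and 18585 normalized counts in Ccdc117ko libraries, against 15904, 14982 and 14000 in WT libraries. The genotypes did not overlap, and the log2 fold change was 0.33 (SE 0.05, adjusted p = 0.00149). Tex43, on chromosome 18, had 2611, 2449 and 2488 in Ccdc117ko libraries, against 2076, 1865 and 1754 in WT libraries, with a log2 fold change of 0.41 (SE 0.06, adjusted p = 0.0018). Both kept their calls with the length and GC trend removed, at 0.25 for Tex33 and 0.29 for Tex43.

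Tex37 showed no such separation. It had 5501, 5724 and 5248 normalized counts in Ccdc117ko libraries, against 5147, 5365 and 5349 in WT libraries. Its log2 fold change was 0.05 (95% interval -0.04 to 0.15, adjusted p = 0.466), and -0.05 with the length and GC trend removed. Tex45 had a log2 fold change of 0.11 (adjusted p = 0.174), and 0.07 with that trend removed.

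Many other genes of the microtubule lumen rose as well. Of 27 tektins and microtubule inner proteins found among the 30 looked for, 14 rose and 0 fell, with a median log2 fold change of 0.16. Tekt2, one of the filament-forming tektins, rose to 17491 ± 573 normalized counts in Ccdc117ko libraries, against 13841 ± 716 in WT libraries (log2 fold change 0.34, SE 0.04, adjusted p = 0.000892). Dusp21 had a log2 fold change of 0.43 (adjusted p = 0.00345), Ppp1r32 one of 0.30 (adjusted p = 0.00341) and Tekt1 one of 0.19 (adjusted p = 0.00563). With the trend in length and GC content removed, 10 of the 27 rose. Single libraries moved the count: 9 rose without Ccdc117ko replicate 2, Ccdc117ko replicate 3 or WT replicate 2, and 8 without WT replicate 3.

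**Figure D3:**
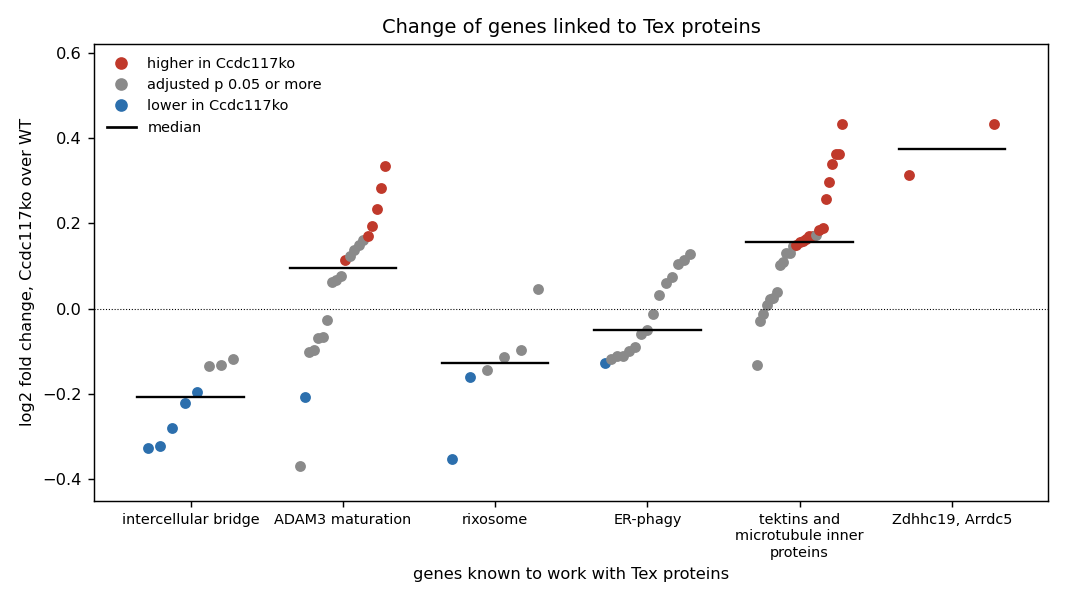
Log2 fold change (Ccdc117ko over WT) of genes known to work with Tex proteins, 1 point a gene, red where higher, blue where lower and grey where the adjusted p was 0.05 or more. Black lines are medians of the plotted points. Zdhhc19, Arrdc5 and 14 of 27 tektins and microtubule inner proteins are red, and the bridge and rixosome genes hold no red point. The 2 rows of Septin2 are not drawn, and 1 of them, at -2.25, lies below the range of the axis.

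Tex14, whose product keeps the intercellular bridges between dividing germ cells open, did not rise. It had 1939, 1967 and 2175 normalized counts in Ccdc117ko libraries, against 2116, 2343 and 2379 in WT libraries. The genotypes overlapped through Ccdc117ko replicate 3 and WT replicate 1, and the log2 fold change was -0.17 (SE 0.06, adjusted p = 0.0836). Without WT replicate 1 it passed the test as lower (adjusted p = 0.0236), whereas with the length and GC trend removed its log2 fold change was -0.07 (adjusted p = 0.55).

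Several genes of the same bridge structure fell. Of 10 rows for 9 bridge genes 5 fell and 0 rose, with a median log2 fold change of -0.21. Septin2 has 2 of these rows, and neither was called. In 1 row its log2 fold change was -2.25 (adjusted p = 0.0844), with 335, 2790 and 243 normalized counts in WT replicates 1 to 3. In the other row it was 0.14 (adjusted p = 0.549), with 5318, 3469 and 6041 in those libraries. WT replicate 2 thus stood apart from the other WT libraries in both rows. In the row at -2.25 the Ccdc117ko libraries varied widely too, with 329, 32.5 and 190 in replicates 1 to 3. Septin9, a filament-forming GTPase, had 1875 ± 112 normalized counts in Ccdc117ko libraries, against 2350 ± 29.8 in WT libraries (log2 fold change -0.33, adjusted p = 0.00265). Anln, the actin-binding anillin of the cleavage furrow, had a log2 fold change of -0.32 (adjusted p = 0.00886), the midbody gene Cep55 one of -0.28 (adjusted p = 0.0172) and Septin7 one of -0.20 (adjusted p = 0.0242). The fifth called gene was Kif23. The list held 3 lower genes with the length and GC trend removed, and 2 without Ccdc117ko replicate 2 or without WT replicate 3. Cep55 lost its call without Ccdc117ko replicate 1 or 2 or WT replicate 3 (adjusted p of 0.0543 to 0.0817), and Septin7 without Ccdc117ko replicate 2 or 3 or WT replicate 3 (0.066 to 0.099). These genes are also active in dividing cells outside the bridge, and 5 of 10 spermatogonial markers fell beside them.

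Of the 5 Tex genes expressed in many tissues, Tex264 rose and the others did not pass the test. Tex264 (chr9:106658746-106685927), a receptor that hands endoplasmic reticulum to autophagosomes, had 2419, 2395 and 2365 normalized counts in Ccdc117ko libraries, against 2125, 2086 and 1909 in WT libraries. There was no overlap, and the log2 fold change was 0.23 (SE 0.05, adjusted p = 0.0123). The call was lost without Ccdc117ko replicate 2 (adjusted p = 0.0509) or WT replicate 3 (adjusted p = 0.0587). Of 15 other receptors and partners of that pathway 0 rose and 1 fell, with a median log2 fold change of -0.05. Once the length and GC trend was removed 1 rose and 0 fell, and the median was 0.04. The gene that fell was Vcp, an ATPase that extracts proteins from membranes, at -0.13 (adjusted p = 0.0499). It lost its call under 11 of the 15 alternative settings, among them the length and GC trend removed (adjusted p = 0.375).

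Tex2, which encodes a lipid-transfer protein of membrane contact sites, was the member with the most reads. It had 18348, 18416 and 20150 normalized counts in Ccdc117ko libraries, against 22123, 19337 and 22018 in WT libraries. The genotypes overlapped, and the log2 fold change was -0.16 (SE 0.05, adjusted p = 0.0704). It passed the test as lower without WT replicate 2 (adjusted p = 0.0176) or without Ccdc117ko replicate 3 (adjusted p = 0.0495). With the length and GC trend removed the log2 fold change was -0.04 (adjusted p = 0.658).

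Tex10, a subunit of the complex that processes ribosomal RNA precursors in the nucleolus, had 4040, 3701 and 4091 normalized counts in Ccdc117ko libraries, against 4004, 4399 and 4414 in WT libraries. The groups overlapped, and the log2 fold change was -0.12 (SE 0.05, adjusted p = 0.175). It reached an adjusted p of 0.0497 as lower without WT replicate 1. Of 6 other genes of that complex 2 fell, the large ATPase Mdn1 with a log2 fold change of -0.35 (adjusted p = 0.0028) and the SUMO protease Senp3 with -0.16 (adjusted p = 0.04). Neither kept its call with the length and GC trend removed, where Mdn1 had -0.17 (adjusted p = 0.0517) and Senp3 -0.14 (adjusted p = 0.0819). Senp3 also lost its call when any library other than WT replicate 1 was left out (adjusted p of 0.0918 to 0.144).

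Tex261, which resembles a yeast protein of vesicles that leave the endoplasmic reticulum, had 3046, 2819 and 2872 normalized counts in Ccdc117ko libraries, against 2683, 2839 and 3031 in WT libraries. The genotypes lay on top of each other (log2 fold change 0.03, 95% interval -0.09 to 0.15, adjusted p = 0.745), and the log2 fold change was 0.09 with the length and GC trend removed. Tex30 had 5020, 5199 and 5084 in Ccdc117ko libraries, against 4830, 4887 and 4842 in WT libraries. Its Ccdc117ko libraries were all above its WT libraries, yet the difference was small (log2 fold change 0.07, 95% interval -0.02 to 0.16, adjusted p = 0.261) and -0.01 with the length and GC trend removed. Of the 50-base words in its longest transcript, 16.4% are shared with the annotated transcript Gm29247, whose reads could be counted with it.

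Of the 14 members with little described products 8 rose. Tex36 (chr7:133587024-133602158) had 5481, 5864 and 5685 normalized counts in Ccdc117ko libraries, against 4461, 4066 and 3825 in WT libraries. The lowest Ccdc117ko library was more than 1000 above the highest WT library, and the log2 fold change was 0.47 (SE 0.06, adjusted p = 0.00055). Tex29 (chr8:11840474-11855761) had 5448, 5517 and 5587 in Ccdc117ko libraries, against 4420, 3999 and 3629 in WT libraries, with a log2 fold change of 0.46 (SE 0.06, adjusted p = 0.000914). The WT libraries spread more than the Ccdc117ko libraries in both genes, and WT replicate 1 was the highest of them.

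Tex26 (chr5:149439660-149470979) had 1862, 1952 and 1967 normalized counts in Ccdc117ko libraries, against 1533, 1424 and 1358 in WT libraries (log2 fold change 0.42, SE 0.06, adjusted p = 0.00107). The sense-intronic gene 4933425D22Rik lies inside it on the same strand and rose too, with 3255 ± 221 in Ccdc117ko libraries and 2808 ± 187 in WT libraries (adjusted p = 0.0335), and their reads may not be fully separable. Tex24 (chr8:27344394-27349188) had 1496, 1666 and 1630 in Ccdc117ko libraries, against 1238, 1373 and 1208 in WT libraries (log2 fold change 0.33, SE 0.07, adjusted p = 0.00626). Of its 50-base words 32.7% are shared with Gm6853 and Gm8110, so its value is uncertain. Gm6853, a transcribed pseudogene, also rose, with 795 ± 28.1 in Ccdc117ko libraries and 628 ± 19.5 in WT libraries (adjusted p = 0.00571).

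Tex21 (chr12:76198686-76246746) had 6894, 6943 and 7918 normalized counts in Ccdc117ko libraries, against 6139, 5968 and 5658 in WT libraries (log2 fold change 0.29, SE 0.06, adjusted p = 0.00516). Ccdc117ko replicate 3 stood highest, and the call remained in each test that left 1 library out. Tex48 (chr4:63607089-63622428) had 5991, 6138 and 5709 in Ccdc117ko libraries, against 5143, 5075 and 4660 in WT libraries (log2 fold change 0.26, SE 0.05, adjusted p = 0.00454). With the length and GC trend removed its log2 fold change was 0.14 (adjusted p = 0.047), and with the replicate block added to that correction the call was lost (adjusted p = 0.0569).

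The smallest changes that passed were those of Tex47 and Tex35. Tex47 (chr5:7304119-7311491) had 2666, 2918 and 2882 normalized counts in Ccdc117ko libraries, against 2465, 2409 and 2423 in WT libraries (log2 fold change 0.21, SE 0.05, adjusted p = 0.0137). The call was lost without Ccdc117ko replicate 2 (adjusted p = 0.0739) or replicate 3 (adjusted p = 0.0529). Tex35 (chr1:157099139-157108680) had 7842, 7763 and 7806 in Ccdc117ko libraries, against 7055, 7306 and 6908 in WT libraries, which did not overlap (log2 fold change 0.14, SE 0.04, adjusted p = 0.0326). With the length and GC trend removed its log2 fold change was 0.01 (adjusted p = 0.869). The call was also lost without any 1 of the 3 Ccdc117ko libraries or without WT replicate 3, with adjusted p-values of 0.0804 to 0.123.

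**Figure D4:**
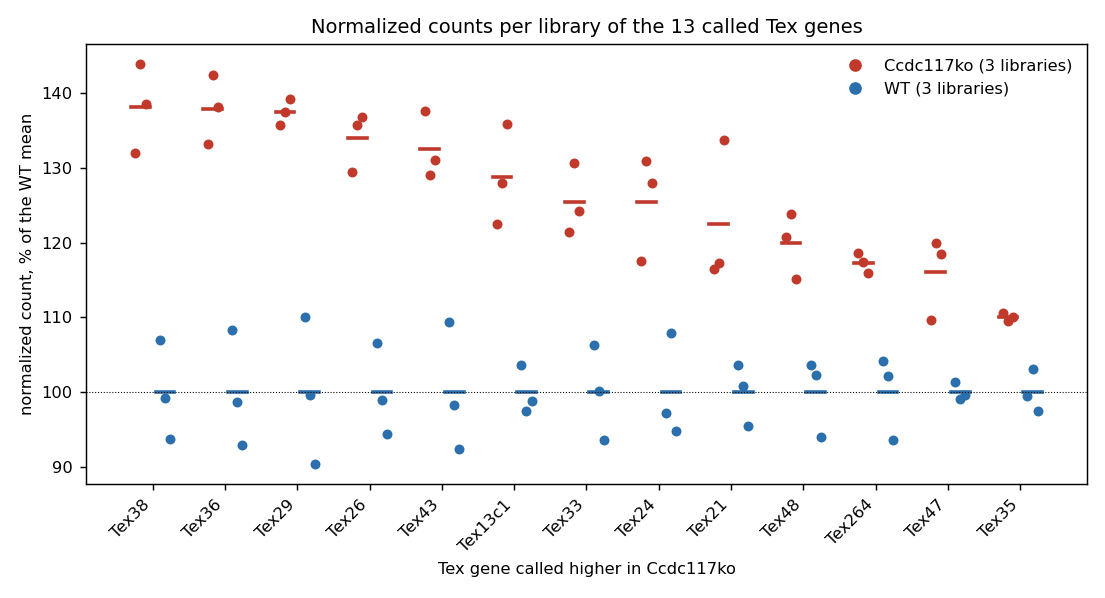
Normalized counts of the 13 called Tex genes in each library as a percentage of the gene's WT mean, red for Ccdc117ko and blue for WT, with a bar at each mean. In each gene the 3 red points lie above the 3 blue points, and WT replicate 1, the first blue point from the left, is the highest WT library in 11 of the 13 genes.

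Of the 6 little described members that did not pass, Tex22 and Tex44 had the most reads. Tex22 had 7888, 8036 and 7334 normalized counts in Ccdc117ko libraries, against 6956, 7403 and 7165 in WT libraries. The groups overlapped at the edge, with a log2 fold change of 0.11 (95% interval 0.01 to 0.21, adjusted p = 0.122), and of 0.05 with the length and GC trend removed. Tex44 had 4554, 4921 and 4513 in Ccdc117ko libraries, against 5187, 4813 and 4746 in WT libraries, with a log2 fold change of -0.08 (95% interval -0.19 to 0.03, adjusted p = 0.345).

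Tex9 had a log2 fold change of 0.15 (adjusted p = 0.0904), and 0.21 with the length and GC trend removed (adjusted p = 0.0262). It lies opposite the abundant flagellar gene Mns1, which averaged 12511 ± 418 in Ccdc117ko libraries and 12787 ± 1100 in WT libraries. Whether the counting used strand is not given in the sources used here, and without strand their reads cannot be told apart. The same limit holds for Tex50 (log2 fold change 0.09, adjusted p = 0.226), which lies opposite Ankrd45. Tex52 (0.09, adjusted p = 0.38) shares 691 bases of its span with Foxm1 on the same strand, and Foxm1 fell to 6746 ± 282 in Ccdc117ko libraries, against 7647 ± 385 in WT libraries. Tex46 had a log2 fold change of -0.03 (adjusted p = 0.836), and -0.15 with the length and GC trend removed (adjusted p = 0.181). Tex19.2, the paralogue of a gene that silences transposons in germ cells, averaged 1188 ± 27.5 in Ccdc117ko libraries and 1174 ± 41.2 in WT libraries (log2 fold change 0.02, adjusted p = 0.87).

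The X chromosome carries 7 of the 35 Tex genes, and only Tex13c1 of these rose. Of all 970 tested X-linked genes 117 rose, 12.1%. Tex13c1 (chrX:43591160-43593532) had 1377, 1438 and 1527 normalized counts in Ccdc117ko libraries, against 1164, 1096 and 1111 in WT libraries. The log2 fold change was 0.36 (SE 0.06, adjusted p = 0.00248), and 0.33 with the length and GC trend removed.

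Tex13a, of the same gene family, had 2119, 2197 and 2299 normalized counts in Ccdc117ko libraries, against 2090, 1893 and 1844 in WT libraries. Its genotypes did not overlap, with a log2 fold change of 0.18 (adjusted p = 0.0511). It passed without WT replicate 1 (adjusted p = 0.0113), and with the length and GC trend removed its log2 fold change was 0.11 (adjusted p = 0.228). The other 5 X-linked members averaged under 300 normalized counts, and single libraries moved them more. Tex13c2 had 143, 161 and 146 in Ccdc117ko libraries, against 201, 173 and 170 in WT libraries, all lower in Ccdc117ko (log2 fold change -0.27, 95% interval -0.53 to -0.01, adjusted p = 0.145). Tex28 had a log2 fold change of 0.32 (adjusted p = 0.356), Tex13b 0.14 (adjusted p = 0.598), Tex13c3 0.09 (adjusted p = 0.716) and Tex16 -0.15 (adjusted p = 0.545).

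Levels were compared between genes per kilobase of the longest transcript. Tex33 was the highest member with 14703 normalized counts per kb over the 6 libraries, followed by Tex35 with 8165, Tex48 with 8054, Tex37 with 6620 and Tex101 with 6410. The libraries of Tex35 and Tex48 overlapped in level, as did those of Tex48 and Tex37 and those of Tex37 and Tex101. Libraries of Tex13c3 and Tex13b overlapped too, as did those of Tex13b and Tex13c2 and those of Tex28 and Tex16. At the low end stood Tex13c3 with 136, Tex13b with 130, Tex13c2 with 90.3, Tex28 with 47.7 and Tex16 with 42.4, all X-linked. The median level per kb was 130 for the 7 X-linked members and 2144 for the 28 autosomal members. Over all tested genes it was also lower on the X, at 65.1 for X-linked and 134 for autosomal genes. The called members had a median of 3082 per kb and the others 1124. Most Tex genes were deeply covered, with 29 of 35 averaging at least 1000 normalized counts.

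**Figure D5:**
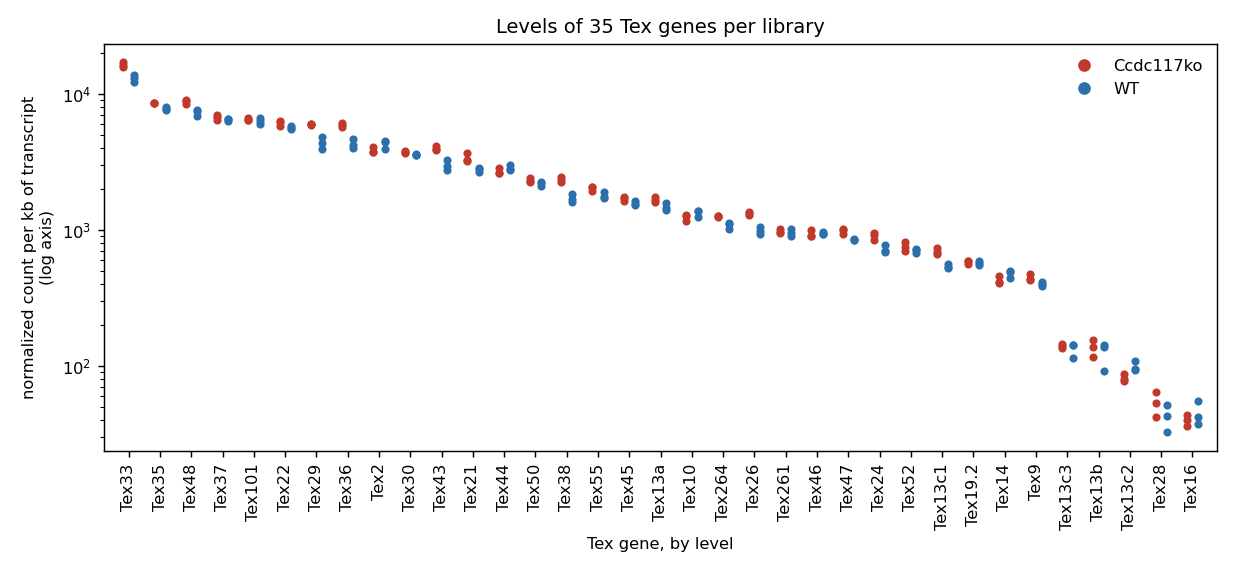
Normalized counts per kilobase of the longest transcript for the 35 Tex genes in each library, on a log axis, red for Ccdc117ko and blue for WT, ordered by mean level. Levels span from 14703 for Tex33 to 42.4 for Tex16, and the 5 lowest genes are all X-linked.

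Replicates of a genotype differed by a few percent in most members. The median coefficient of variation of the 13 called members was 3.66% in Ccdc117ko libraries and 6.16% in WT libraries, and that of the other members was 4.80% in Ccdc117ko libraries and 5.44% in WT libraries. WT replicate 1 was the highest WT library in 11 of the 13 called members, and thus the nearest to Ccdc117ko, and WT replicate 3 was the lowest in 11. WT replicate 1 was likewise the highest WT library in 56.0% of all genes called higher and in 36.5% of all tested genes. Without WT replicate 1, 15 members were called higher and 2, Tex10 and Tex14, lower.

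The authors' deposited table listed 15 Tex genes as higher and 2 as lower at an FDR under 0.05. All 13 genes called here were among them. The other 4 in the authors' deposited table were Tex55 with a log2 fold change of 0.17 (FDR 0.0207), Tex13a with 0.18 (FDR 0.0185), Tex2 with -0.16 (FDR 0.0198) and Tex14 with -0.17 (FDR 0.0447).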

How the data were processed

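Testis RNA was taken up in TRIzol and treated with DNase before a stranded library kit, per the labels' protocols. STAR, DESeq2 and mm10 appear in the submitters' processing notes, without roles or versions. How reads were counted, and whether by strand, is not stated there. The authors deposited 1 table with a log2 value per gene and library, read here from the values as log2(normalized count + 1), as the headers name no unit. Undoing the log2 and the scaling gave whole reads, whole within 0.01 for 100% of values under 500 reads. The authors also deposited a log2 fold change, a p-value and an FDR per gene, by a test the file does not state. They are printed only where credited to the authors' deposited table.

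As planned for log2 values, limma-trend (limma 3.58.1, R 4.3.3) was fitted to the deposited values of all 6 libraries with genotype as the only term, for genes averaging at least 10 normalized counts. Two-sided p-values were adjusted by Benjamini-Hochberg over all genes tested, and intervals are 95% intervals of the log2 fold change. The added 1 in the log2 values makes fold changes of low genes too small. Depth was 35791616 to 43461692 reads per library. An exact permutation test of 3 against 3 cannot go below p = 0.1 and was not used.

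The members, the lists of linked genes and of cell type markers, the filter and the tests were chosen with earlier results of these data known, and the motifs after matches had been counted. Full statistics are given for each member called and for the 8 most abundant others, and for up to 4 called genes per linked list by smallest p. All 6 library values are also given for Tex14, Tex13a and Tex13c2. These go beyond that rule. Kif23, Adam3, Septin2 and the neighbouring or sequence-sharing genes lie outside it too, and all were chosen after their values were seen. Lengths and GC content are those of the longest annotated transcript, and promoter windows come from RefSeq (GRCm38.p6). Alternatives were other filters, pseudocount and scalings, a replicate block, removal of the length and GC trend, leaving out each library, and limma-voom on the recovered reads, added after seeing the data.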

Additional observations from a re-analysis of the deposited data

How the results depend on the processing

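Of the 13 Tex genes called, 9 (Tex38, Tex36, Tex29, Tex26, Tex43, Tex13c1, Tex33, Tex24 and Tex21) passed under all 15 alternatives run. Over the 35 genes and 15 alternatives, of 525 values a called gene kept its call in 182 and lost it in 13, with 0 changes of direction. A gene not called stayed so in 300, became called in 13 and changed sign in 17. The number of Tex genes called was 12 with a filter at 0.5 normalized counts or with none, 14 with a pseudocount of 5 or with limma-voom, 13 with TMM scaling and 15 with upper-quartile scaling, and 10 to 17 when single libraries were left out, lowest without Ccdc117ko replicate 2 and highest without WT replicate 1. Over all tested genes the count, 3798, became 2228 at 0.5 and 2219 with no filter, where more genes are tested, and lay between 1714 (without Ccdc117ko replicate 2) and 4021 (without WT replicate 1). The 31 linked genes called became 20 with either filter and 15 to 37 with libraries left out.

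Over all tested genes, same-numbered libraries did not deviate together (correlations of -0.0033, -0.0039 and 0.0061). The trend of each library with length was nonetheless lowest in replicate 2 and highest in replicate 3 of both genotypes. As log2 deviation from the gene mean per doubling of length, it was -0.0332, -0.0493 and -0.0279 in Ccdc117ko replicates 1 to 3. In WT replicates 1 to 3 it was 0.0433, 0.0166 and 0.0505. Whether same-numbered libraries shared a preparation step was not tested. With the replicate block 14 Tex genes were called, Tex2 entering as lower (adjusted p = 0.0354), beside 3579 of all genes and 27 linked genes. With the block and the length and GC trend removed, 12 Tex genes, 2371 of all genes and 16 linked genes were called, with Tex48, Pmis2 and Tekt1 among the losses. Without the block, that correction left 13, 2791 and 21, and moved the split over all genes to 1878 higher and 913 lower, from 1911 and 1887. Upper-quartile scaling gave 2187 higher and 1524 lower.

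Changes of sign were all among genes not called. With the length and GC trend removed, with or without the block, log2 fold changes were 0.024 for Ccdc117, -0.0265 for Tex50, -0.0228 for Tex13c3, -0.0061 for Tex30, -0.0542 for Tex37 and -0.0304 for Tex101. With single libraries left out they ran from -0.0703 to 0.0138 for Ccdc117, -0.0597 to 0.25 for Tex13b, -0.0149 to 0.14 for Tex13c3, -0.0111 to 0.0768 for Tex261, -0.0079 to 0.0427 for Tex19.2, -0.0777 to 0.00065 for Tex46 and -0.27 to 0.0126 for Tex16. The cause was not tested. The plan named edgeR only for a file of counts, and neither edgeR nor DESeq2 was run on the recovered reads. The limma-voom fit on those reads was not planned. Depth limits the 5 X-linked members under 300 normalized counts.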
